A study of Mus musculus with 2 samples.

Results

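The endoplasmic reticulum (ER) folding, secretion and unfolded protein response genes are a list of 38 genes chosen for what their products do: ER chaperones, disulfide isomerases, translocon subunits, ER-associated degradation factors, stress sensors and stress targets. Every probe set that the platform annotation assigns to exactly 1 gene, that gene being on the list, was taken, which gave 96 of 45037 probe sets and 38 of 18193 genes. They were compared between conditional knockout liver (Prox1 f/f;Foxa3Cre, a floxed Prox1 gene with Cre driven by Foxa3) and wild-type liver, 1 RNA sample of each. Both samples were total RNA from E14.5 mouse embryos on the strain background NMRI/C57Bl6, each hybridized to 1 single-colour Affymetrix array. Foxa3 is active in the endoderm that gives rise to hepatoblasts, so blood, endothelial and mesenchymal cells of the organ are not the intended site of deletion. The number of embryos in each RNA sample is not stated. There was 1 array per genotype, so no value below has a replicate error and no difference was tested.

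Proteins bound for the blood enter the ER through the Sec61 channel, are glycosylated, fold with the help of chaperones and disulfide isomerases, and are sent back to the cytosol for destruction when they fail to fold. When unfolded protein builds up, the sensors IRE1 (gene Ern1), PERK (Eif2ak3) and ATF6 signal through spliced Xbp1, through Atf4 and through cleaved ATF6 to raise the genes of this machinery. Hepatocytes and their precursors secrete most plasma proteins and carry a large ER.

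Values are MAS5 signals on a linear scale. Log2 differences are given as knockout minus wild type, so a negative one means lower in the knockout. Signals below a floor of 112.6, the higher of the arrays' medians, were raised to it. A gene was represented by its brightest probe set and counted as measured when that probe set lay above the floor on at least 1 array. Signals of different probe sets are not comparable as levels, so each gene is compared with itself.

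The labelled tissue carried its markers on both arrays. Of 5 hepatoblast and hepatocyte markers, all lay above the floor on both, 4 of them lower in the knockout and none past 1.5-fold. Among these markers, Alb, Afp, Ttr and Apoa1 also belong to the 32 secreted plasma proteins below, of which 21 were at least 1.5-fold lower. Alb read 33186 in the knockout sample and 32396 in the wild-type sample, while Hnf4a, a liver transcription factor, read 1562 in the knockout sample and 2280 in the wild-type sample (log2 difference -0.55). Prox1 read 221.8 in the knockout sample and 340.3 in the wild-type sample, a log2 difference of -0.62. Which exons its probe sets cover is not stated. The arrays also differed in sex-linked RNA: Xist read 365.7 in the knockout sample and 11467 in wild type. Markers of other cells differed as well. Of 8 stellate and mesenchymal markers, 7 were at least 1.5-fold higher. The median log2 difference over all 8 was 1.21, and their summed signal, carried mostly by the brightest probe sets, was 20229 in the knockout and 9274 in wild type. All 7 granulocyte markers passed 1.5-fold higher. Their median was 1.02 and their summed signal was 69586 in the knockout and 33393 in wild type. Of 4 bile duct markers, all above the floor in the knockout only, Krt19 was at least 8.72-fold and Epcam at least 2.42-fold higher. Among 4 macrophage markers 2 were at least 1.5-fold higher, with Marco at 1.44, and 1 of 3 erythroid markers measured was lower at that size, Hbb-bh1 at -1.04. In whole liver, fewer cells of a type and less RNA per cell cannot be told apart, and the part of these shifts in the differences below was not tested.

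The ER genes differed little between the samples. All 38 were measured, 37 of them on both arrays and Derl3 on the knockout array only. No member was at least 2-fold higher, against 3.27% of the 11397 genes measured, and no member was at least 2-fold lower, against 2.13%. Shares of this size amount to few genes among 38, so these counts say little about the members. At 1.5-fold, 2 members were higher, Ern1 and Trib3, against 9.87% of all genes, and 0 were lower, against 5.21%. The median log2 difference was -0.08 over the members and 0.03 over all genes measured. In all, 24 members lay below 0 (63.2%, beside 46.2% of all genes) and 14 above 0. The brighter members leaned further: of 26 with a mean signal of 1000 or more, 20 were below 0 (76.9%) and the median was -0.14, while 4200 genes of that brightness had 54.6% below 0 and a median of -0.02. Of these 26, 0 were at least 1.5-fold higher or lower, beside 3.76% higher and 3.40% lower of the 4200 genes. The median absolute log2 difference was 0.15 over the 26 and 0.14 over the 4200, so bright members differed about as much as bright genes. All 37 members measured on both arrays lay inside the middle 95% of genes of like signal. Quantile normalization, lowess correction and setting the median of all genes to 0 turned the sign of 3 members that lay near 0, Manf, Edem1 and Ssr3, and left 22 below 0 and 13 above 0.

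**Figure D1:**
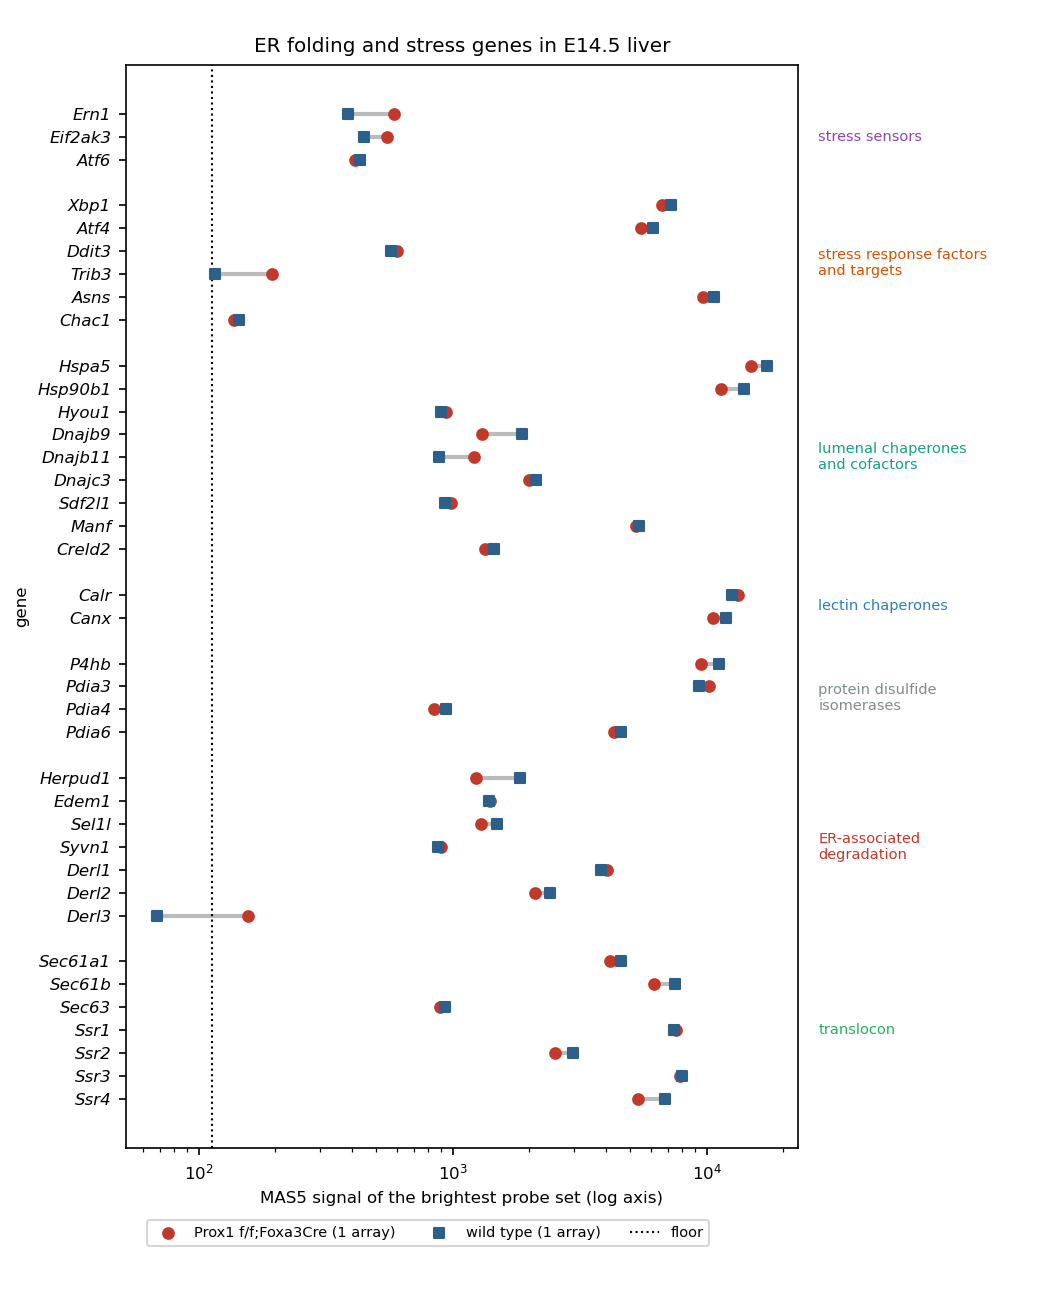
MAS5 signal of the brightest probe set of each of the 38 genes (horizontal log axis) in the knockout sample (red circles) and the wild-type sample (blue squares), 1 array each, with genes grouped by role down the page and the floor of 112.6 dotted. The paired points lie close together for most genes, and the widest gaps belong to Derl3, Trib3, Ern1, Herpud1 and Dnajb9.

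**Figure D2:**
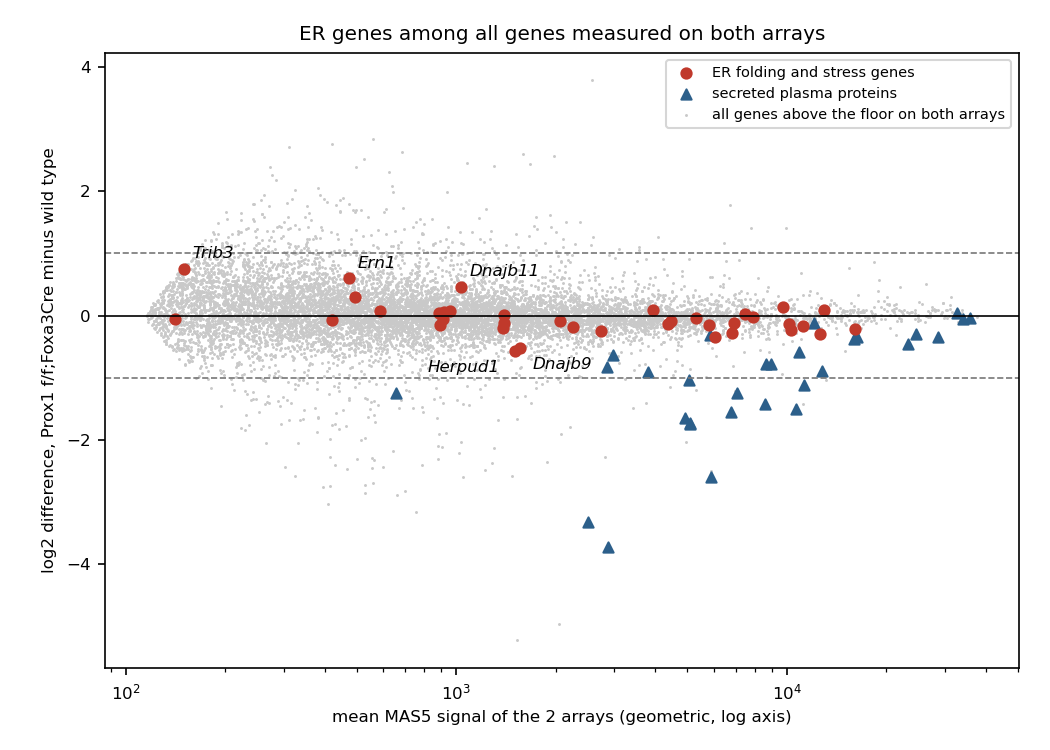
Log2 difference (knockout minus wild type, vertical) against the mean MAS5 signal (horizontal log axis) for genes above the floor on both arrays, with ER folding and stress genes as red circles, secreted plasma proteins as blue triangles and all genes as grey points; dashed lines mark 2-fold. The red circles stay between the dashed lines, while many blue triangles lie below the lower one.

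Of the 32 members with a promoter window, 14 held at least 1 of the stress-response DNA motifs searched for. The members were listed for function, and some are well-known stress targets, so these motifs are not independent of the list. The ER stress response element (ERSE), bound by ATF6 together with the CCAAT-binding factor NF-Y, is CCAAT and CCACG separated by 9 bases. Promoter windows of 300 bases, 250 before and 50 after the annotated start, came from RefSeq (build GRCm38.p6). An exact ERSE on either strand was present in 9 of these 32 members, 28.1%, in 0 of 112 further genes of the same pathways, and in 37 of 27025 genes with a window, 0.137%. It stood in Hspa5, Hsp90b1 (which holds a pair), Dnajc3, Creld2, Calr, Canx, Pdia6, Syvn1 and Derl3. The related ERSE-II (ATTGG, 1 base, then CCACG) was present in Herpud1 and Dnajb11, in 1 of the 112 further genes, and in 12 genes of all, 0.0444%. The ATF6 and XBP1 motif TGACGTGG was in 0 members, in 8 of the 112 further genes (7.14%) and in 193 genes of all, 0.714%. The core of the Atf4 element, TGATGNAA, was in Asns, Chac1, Trib3 and Herpud1 among the members (12.5%). It was also in 13 of the 112 further genes (11.6%) and in 1219 genes of all, 4.51%. ERSE-II holds the same CCACG as ERSE and the reverse complement of its CCAAT, but no member had both.

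The matched stretches are shown because few promoters of the genome hold them, 5′ to 3′ on each gene's own strand, with the fixed letters of the ERSE or ERSE-II in capitals. A match on the opposite strand reads CGTGG first and ATTGG last. Positions are on GRCm38.p6.
Hspa5, chr2:34771890-34772089, plus strand: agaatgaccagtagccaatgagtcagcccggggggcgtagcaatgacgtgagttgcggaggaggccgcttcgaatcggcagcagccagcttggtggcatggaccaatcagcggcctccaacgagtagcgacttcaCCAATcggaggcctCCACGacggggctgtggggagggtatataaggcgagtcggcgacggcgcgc
Hsp90b1, chr10:86705521-86705668, minus strand: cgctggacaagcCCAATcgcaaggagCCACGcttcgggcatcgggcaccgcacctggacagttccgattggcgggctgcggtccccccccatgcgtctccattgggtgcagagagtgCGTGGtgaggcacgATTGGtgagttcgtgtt
Dnajc3, chr14:118937815-118937857, plus strand: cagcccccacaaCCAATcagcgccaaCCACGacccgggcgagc
Creld2, chr15:88819508-88819550, plus strand: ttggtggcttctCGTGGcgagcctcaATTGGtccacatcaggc
Calr, chr8:84847063-84847105, minus strand: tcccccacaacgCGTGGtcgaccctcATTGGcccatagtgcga
Canx, chr11:50325788-50325830, minus strand: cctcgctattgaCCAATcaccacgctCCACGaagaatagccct
Pdia6, chr12:17266479-17266521, plus strand: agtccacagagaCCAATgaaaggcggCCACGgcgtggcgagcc
Syvn1, chr19:6046520-6046562, plus strand: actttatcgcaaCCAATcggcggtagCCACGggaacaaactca
Derl3, chr10:75893230-75893272, plus strand: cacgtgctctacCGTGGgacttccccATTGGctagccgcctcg
Herpud1 (ERSE-II), chr8:94386365-94386399, plus strand: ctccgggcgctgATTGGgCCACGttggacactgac

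The Atf4 element core stood before the start of 3 members, shown with its fixed letters in capitals and read from the opposite strand in Chac1 and Herpud1.
Asns, chr6:7693213-7693244, minus strand: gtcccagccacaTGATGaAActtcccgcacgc
Chac1, chr2:119351037-119351068, plus strand: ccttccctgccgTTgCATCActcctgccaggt
Herpud1, chr8:94386305-94386336, plus strand: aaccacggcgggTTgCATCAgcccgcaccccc

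Genes with and without an ERSE had overlapping differences. The 9 members with an ERSE ran from -0.30 to 0.47 with a median log2 difference of -0.09. The 23 members whose window held no ERSE ran from -0.57 to 0.76 with a median of -0.06. These 23 include Herpud1 (-0.57, the lowest) and Dnajb11 (0.46), which hold the related ERSE-II. The 4 members with the Atf4 element core ran from -0.57 to 0.76 with a median of -0.10.

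**Figure D3:**
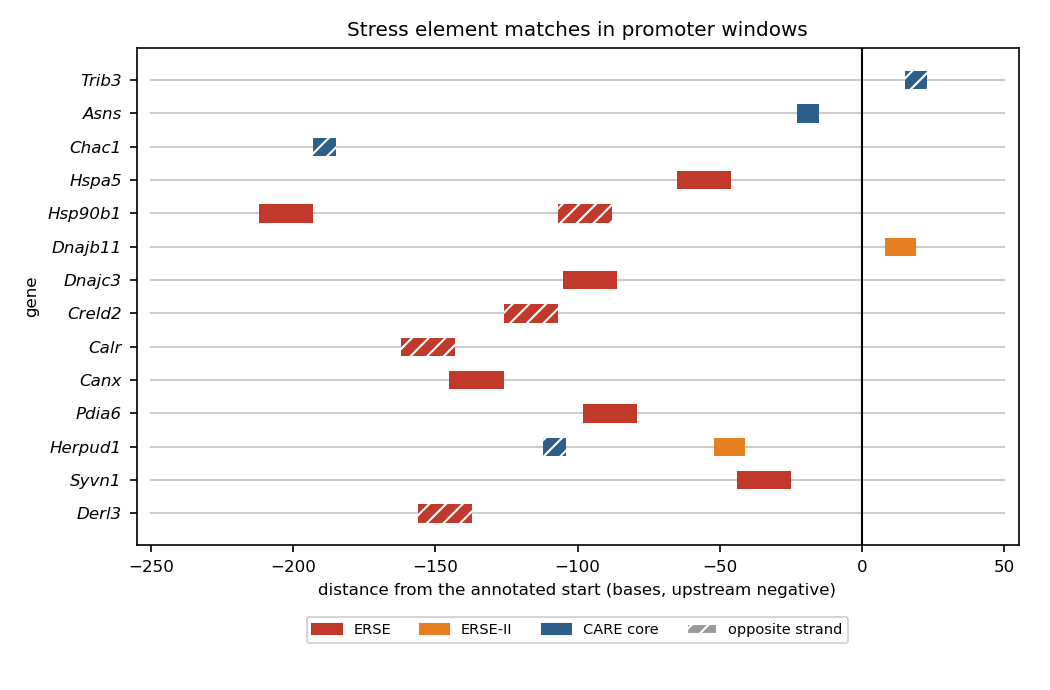
Positions of exact matches to ERSE (red), ERSE-II (orange) and the Atf4 element core (CARE core, blue) in the promoter windows of the 14 members that hold any, in bases from the annotated start (horizontal axis), with hatching for matches on the opposite strand. ERSE matches lie upstream in all 9 members that have them; the ERSE-II of Dnajb11 and the Atf4 element core of Trib3 lie after the start.

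The stress sensors gave mixed readings. Ern1, the kinase and ribonuclease that splices Xbp1 mRNA, read 583.9 in the knockout and 385.7 in wild type, 1.51-fold higher (log2 difference 0.60). Its next probe set read 187.6 in the knockout and 279.1 in wild type, a log2 difference of -0.57, so the probe sets of Ern1 do not settle a direction. Ern1 was below 1.5-fold in all 3 scaling alternatives and lay at -0.09 as the median over its 3 measured probe sets. Eif2ak3, the PERK kinase that slows translation, read 549.8 in the knockout and 445.1 in wild type (0.30). Atf6, the membrane-tethered transcription factor, read 410.8 in the knockout and 431.3 in wild type (-0.07), with a second probe set at 0.34.

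The transcription factors downstream of the sensors were slightly lower or level. Xbp1, which drives ER expansion once spliced, read 6641 in the knockout and 7245 in wild type (log2 difference -0.13). All 4 Xbp1 probe sets were below 0, from -0.29 to -0.07; these signals do not separate spliced from unspliced mRNA. Atf4, the factor translated when PERK is active, read 5505 in the knockout and 6124 in wild type (-0.15), and its other measured probe set was at -0.17. Ddit3, encoding the pro-apoptotic factor CHOP, read 604.0 in the knockout and 572.2 in wild type (0.08), with 0.07 on its other probe set.

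The Atf4 targets lay on both sides of 0. Asns, asparagine synthetase, read 9679 in the knockout and 10649 in wild type (log2 difference -0.14), and its other probe set was at -0.30. Trib3, a pseudokinase induced by Atf4 and CHOP, read 194.8 in the knockout and 115.3 in wild type, 1.69-fold higher (0.76). The wild-type reading lay just above the floor, its second probe set was at 0.21, and 154 of 1633 genes of like signal (9.43%) had a larger difference. With the floor at the 60th percentile Trib3 fell below 1.5-fold, at 0.03, and the median of its pair of probe sets was 0.48. Chac1, which degrades glutathione, read 138.1 in the knockout and 143.6 in wild type (-0.06).

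The main lumenal chaperones were slightly lower. Hspa5, the Hsp70 of the ER known as BiP, read 14911 in the knockout and 17320 in wild type, 1.16-fold lower (log2 difference -0.22). Its other probe sets were at -0.18 and 0.01. Hsp90b1, the Hsp90 of the ER, read 11337 in the knockout and 13984 in wild type, 1.23-fold lower (-0.30), and both of its probe sets were below 0. Among 808 genes above a signal of 5000, whose middle 95% ran from -0.78 to 0.47, 59 (7.30%) had a lower difference than Hsp90b1. Hyou1, which recharges BiP with nucleotide, read 939.0 in the knockout and 898.1 in wild type (0.06), but a dimmer probe set was at -0.37.

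The J-domain partners of BiP lay in opposite directions. Dnajb9, which helps BiP restrain Ern1 and deliver proteins for degradation, read 1301 in the knockout and 1872 in wild type, 1.44-fold lower (log2 difference -0.52). Of 3392 genes with a mean signal from 1000 to 5000, 146 (4.30%) lay lower than Dnajb9. Dnajb11, which brings unfolded chains to BiP, read 1215 in the knockout and 881.6 in wild type, 1.38-fold higher (0.46), with 210 genes of like signal (6.19%) above it. Each of these genes had 1 probe set. Dnajc3, a co-chaperone known as an inhibitor of PERK, read 1997 in the knockout and 2128 in wild type (-0.09), and all 5 of its probe sets were below 0, down to -0.42. Sdf2l1, a partner of Dnajb11, read 982.1 in the knockout and 932.0 in wild type (0.08).

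The stress-inducible lumenal proteins Manf and Creld2 were close to level. Manf, a secreted and ER-resident neurotrophic factor, read 5242 in the knockout and 5407 in wild type (log2 difference -0.04). Creld2, a protein with disulfide isomerase activity, read 1338 in the knockout and 1452 in wild type (-0.12). The lectin chaperones, which hold glycoproteins during folding, differed in sign. Calr, the soluble one, read 13319 in the knockout and 12525 in wild type (0.09), with all 3 probe sets above 0 and the highest at 0.27. Canx, the membrane-bound one, read 10560 in the knockout and 11871 in wild type (-0.17), with all 3 probe sets below 0 and the lowest at -0.32.

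Of the 4 protein disulfide isomerases, 3 were slightly lower. P4hb, the founding member and also a subunit of collagen prolyl hydroxylase, read 9516 in the knockout and 11193 in wild type (log2 difference -0.23). Pdia3, which works with the lectin chaperones, read 10214 in the knockout and 9304 in wild type (0.13). The remaining isomerases were Pdia4, at 845.6 in the knockout and 939.1 in wild type (-0.15), and Pdia6, a regulator of Ern1, at 4304 in the knockout and 4588 in wild type (-0.09).

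In ER-associated degradation the lowest member of the whole list stood beside genes near 0. Herpud1, a stress-induced membrane protein that assembles the degradation complex, read 1235 in the knockout and 1838 in wild type, 1.49-fold lower (log2 difference -0.57). Its second probe set read 1134 in the knockout and 1989 in wild type (-0.81), so both agreed in direction, and 123 of 3392 genes of like signal (3.63%) lay lower. Herpud1 passed 1.5-fold lower when the median of all genes was set to 0, which left Trib3 as the 1 member at least 1.5-fold higher. Sel1l, the adaptor of the ubiquitin ligase Syvn1, read 1288 in the knockout and 1487 in wild type (-0.21), with all 5 probe sets below 0. Syvn1 itself read 897.1 in the knockout and 872.1 in wild type (0.04), and its second probe set was at -0.22.

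The degradation genes that recognise and pull out substrates showed how far probe sets of 1 gene can differ. Edem1, which marks misfolded glycoproteins, read 1396 in the knockout and 1387 in wild type (log2 difference 0.01), but its dimmer probe set read 637.8 in the knockout and 390.0 in wild type (0.71). The derlins form part of the exit channel. Derl1 read 4051 in the knockout and 3818 in wild type (0.09) with its other 3 probe sets below 0, and Derl2 read 2114 in the knockout and 2406 in wild type (-0.19). Derl3, the stress-inducible derlin, read 155.9 in the knockout and 68.1, below the floor, in wild type, so it was at least 1.38-fold higher. With the floor at the 30th percentile the log2 difference of Derl3 was 1.19.

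The translocon leaned lower in 6 of 7 members, a count too small to say much. Below 0 lay 46.2% of all genes, and 54.6% of those with a mean signal of 1000 or more. Sec61a1, the channel itself, read 4168 in the knockout and 4575 in wild type (log2 difference -0.13), and its 6 probe sets ran from -0.21 to 0.16. Sec61b, a small subunit of the channel, read 6186 in the knockout and 7478 in wild type (-0.27). Sec63, which recruits BiP to the channel, read 893.4 in the knockout and 927.9 in wild type (-0.05), with 3 of 5 probe sets above 0. The group median was -0.13, and it was -0.11 with 5 of 7 below 0 after either quantile normalization or lowess correction.

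The Ssr genes encode the translocon-associated protein complex, which helps some chains to enter. Ssr1 read 7540 in the knockout and 7435 in wild type (log2 difference 0.02), with other probe sets from -0.54 to 0.16. Ssr2 read 2519 in the knockout and 2982 in wild type (-0.24), and Ssr3 read 7868 in the knockout and 7957 in wild type (-0.02). Ssr4 was the lowest of the complex at 5374 in the knockout and 6838 in wild type, 1.27-fold lower (-0.35). A dimmer Ssr4 probe set read 232.9 in the knockout and 685.4 in wild type (-1.56), the 1 member probe set past 2-fold, and another was at -0.38. Ssr4 is the 1 member on the X chromosome, and the samples differed in Xist as given above; the part of this in the Ssr4 reading was not tested.

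Across the list, 87 of the 96 probe sets were measured, of which 59 were below 0 and 28 above 0. Probe sets of 1 gene are not independent, and Sel1l and Dnajc3 each gave 5 of the 59. The matching share over all probe sets of the array was not counted. Of 25 members with more than 1 measured probe set, 16 had all of them in the same direction, 11 lower and 5 higher. That share was 64.0%, beside 53.2% of 5269 genes of the whole array.

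**Figure D4:**
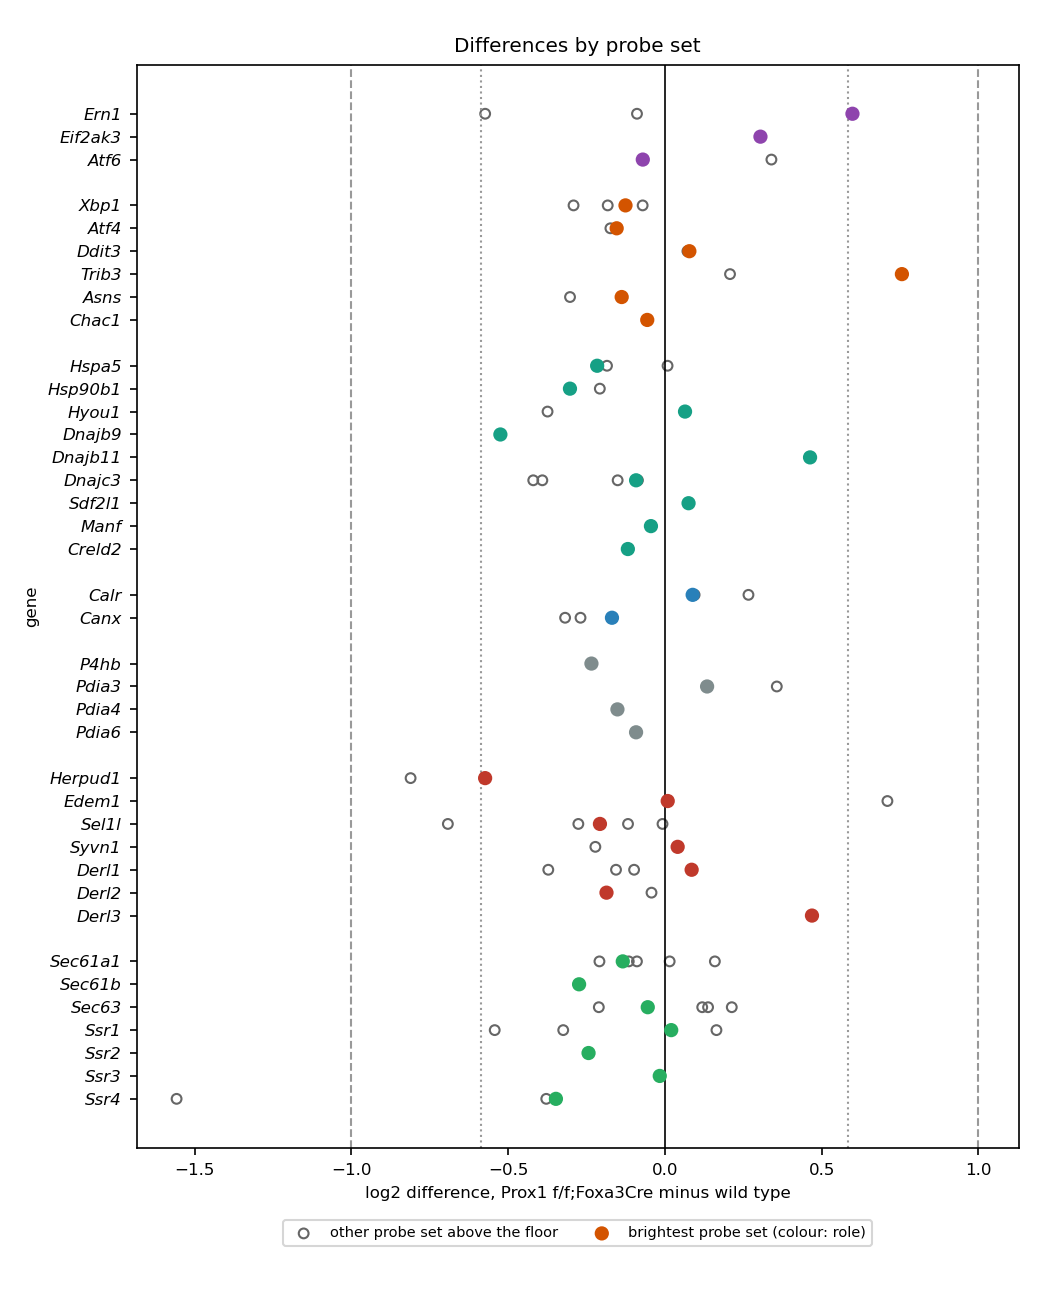
Log2 difference (knockout minus wild type, horizontal) of every measured probe set of the 38 genes, 1 gene per line in the order of roles, with the brightest probe set filled and coloured by role and the others open; dotted lines mark 1.5-fold and dashed lines 2-fold. Most points lie within 0.5 of 0. Ern1, Atf6, Hspa5, Hyou1, Syvn1, Derl1, Sec61a1, Sec63 and Ssr1 have probe sets on both sides of 0.

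Further genes of the same pathways were listed for their function, with the members left out, and 133 of them were measured. At 1.5-fold, 10 were higher and 7 lower, 7.52% and 5.26%, near the 9.87% and 5.21% of all genes. Their median log2 difference was -0.02. The oligosaccharyltransferase, which attaches glycans at the channel, had 9 of 10 subunits below 0 (7 of 10 after quantile normalization). Of all genes with a mean signal of 1000 or more, 54.6% lay below 0. The oligosaccharyltransferase median was -0.13 and no subunit passed 1.5-fold. Stt3a, a catalytic subunit, read 7760 in the knockout and 9963 in wild type (-0.36), followed by Ostc (-0.30) and Magt1 (-0.24). Signal recognition, translocation and signal peptidase genes had 0 of 16 past 1.5-fold and a median of -0.08, with Srp72 (-0.29), Spcs3 (-0.23) and Spcs2 (-0.21) farthest from 0.

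Larger differences occurred among folding enzymes outside the core list. Pdia5, a disulfide isomerase, read 1032 in the knockout and 2740 in wild type, 2.66-fold lower (log2 difference -1.41) on its 1 probe set. Fkbp11, a prolyl isomerase of secretory cells, read 959.9 in the knockout and 1829 in wild type (-0.93), although a dimmer probe set was at 0.24. Serpinh1, the chaperone of collagen, went the other way, at 4024 in the knockout and 1665 in wild type, 2.42-fold higher (1.27), with 0.92 on its second probe set. Collagen genes of mesenchyme were higher beside it: Col1a1 read 1278 in the knockout and 322.7 in wild type. Of 31 folding enzymes measured, 1 was at least 1.5-fold higher (3.23%, beside 9.87% of all genes) and 3 lower (9.68%, beside 5.21%). Their median was -0.07. Of 18 further degradation genes, 1 was at least 1.5-fold higher, Edem3 (0.80), and 0 lower, 5.56% and 0% beside the same shares. Selenos (-0.46) and Erlec1 (0.36) followed.

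Vesicle export genes had 1 of 24 at least 1.5-fold higher (4.17%, beside 9.87% of all genes), 0 lower (beside 5.21%) and a median of -0.06. That gene was Kdelr3, a receptor that returns ER proteins from the Golgi, at 256.7 in the knockout and 136.7 in wild type (log2 difference 0.91). Tmed9 (-0.43) and Lman1 (-0.36), cargo receptors, were next, and 1 dimmer Lman1 probe set was at 0.60.

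Of 14 stress transducers outside the list, 4 were at least 1.5-fold higher (28.6%, beside 9.87% of all genes) and 2 lower (14.3%, beside 5.21%). Creb3l3, a liver-enriched factor that is cut from the ER membrane like ATF6, read 614.4 in the knockout and 1012 in wild type, 1.65-fold lower (log2 difference -0.72). Atf5, a relative of Atf4, read 648.8 in the knockout and 1077 in wild type (-0.73). Wfs1, an ER membrane protein, read 204.7 in the knockout and 111.4, below the floor, in wild type, so it was at least 1.82-fold higher.

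Amino acid response genes, many of them Atf4 targets, had 3 of 20 at least 1.5-fold higher (15%, beside 9.87% of all genes). They had 2 lower (10%, beside 5.21%) and a median log2 difference of -0.01. Cth, the enzyme that makes cysteine from cystathionine, read 474.4 in the knockout and 2197 in wild type, 4.63-fold lower (-2.21). Ddit4, an inhibitor of mTOR signalling, read 584.5 in the knockout and 289.9 in wild type (1.01). Gpt2, a mitochondrial transaminase, read 1265 in the knockout and 749.6 in wild type (0.75), with all 4 probe sets above 0.

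The ER genes can be set beside chaperones of other compartments and beside the cargo of the hepatocyte ER. The ER list had 2 of 38 genes at least 1.5-fold higher (5.26%, beside 9.87% of all genes). It had 0 lower (beside 5.21%) and a median log2 difference of -0.08. Of 31 cytosolic and mitochondrial chaperones measured, 4 were at least 1.5-fold higher (12.9%) and 0 lower, with a median of 0.04. The largest differences were in genes near or below the floor in wild type. Hspa1b, a cytosolic Hsp70, read 626.8 in the knockout and 119.0, just above the floor, in wild type (2.40). The small heat shock genes Hspb1 and Hspb8, below the floor in wild type, were at least 5.56-fold and 2.28-fold higher. The other 27 chaperones of this list lay within 1.5-fold. Of 32 secreted plasma proteins, 21 were at least 1.5-fold lower (65.6%) and 0 higher, with a median of -0.86. These differences between lists were not tested. B cell and plasma cell markers, whose cells have a large ER, were below the floor on both arrays for 3 of 4 genes with a probe set: Jchain read 60.3 in the knockout and 41.1 in wild type. The remaining gene, Sdc1, lay above it at 950.3 in the knockout and 1195 in wild type (-0.33), with probe sets from -0.34 to 0.15. The acinar pancreas genes Cpa1 and Ptf1a were below the floor in both, while Cela1 read 589.4 in the knockout and 468.0 in wild type (0.33).

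**Figure D5:**
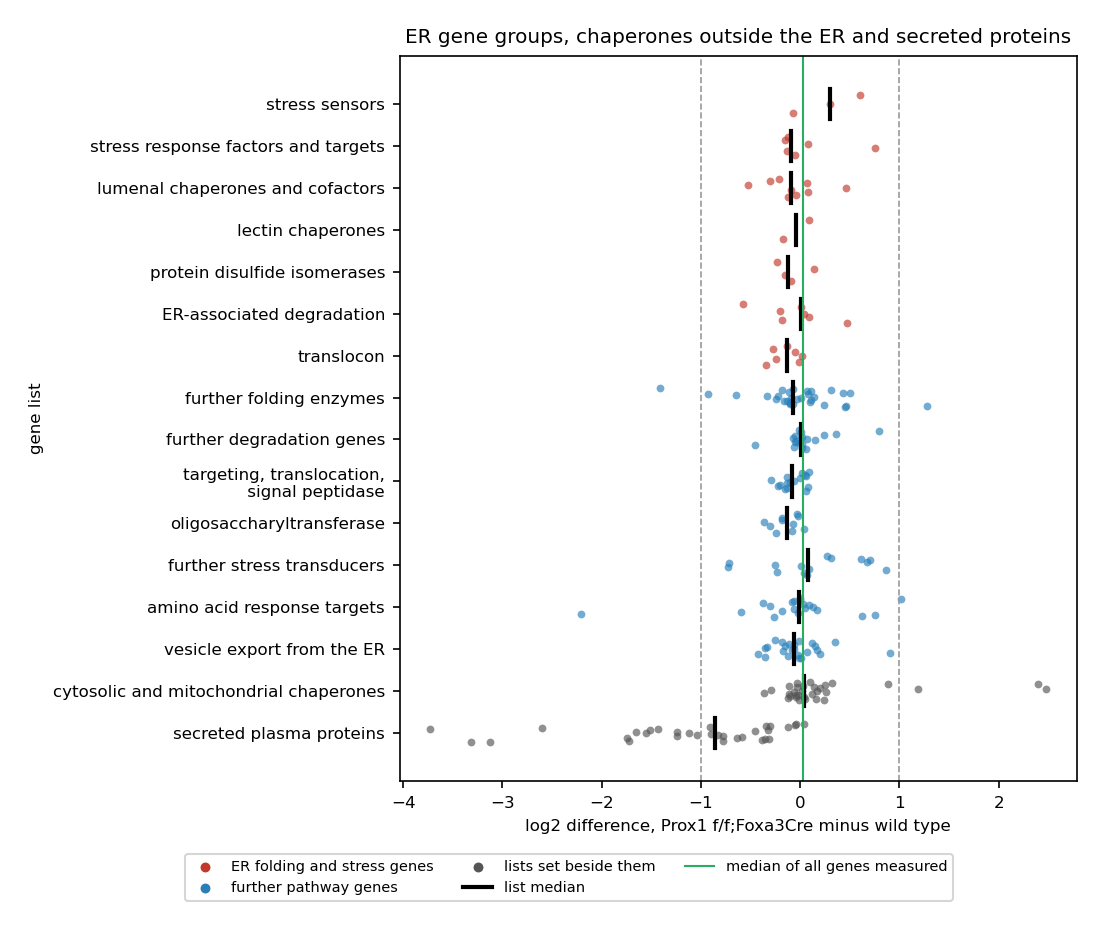
Log2 difference (knockout minus wild type, horizontal) of every measured gene in the ER role groups (red), the further pathway lists (blue) and the lists set beside them (grey), with a black bar at each list's median, a green line at the median of all genes measured and dashed lines at 2-fold. ER group medians lie between -0.13 and 0.30, and the secreted plasma proteins extend left to -3.73.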

How the data were processed

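The authors deposited 1 intensity per probe set and array, made with MAS5 according to the submitters' processing notes, which summarizes perfect-match and mismatch probes. Its version is not stated. The trimmed mean was 500.0 on both arrays, so the values were used as deposited. Biotin-labelled cRNA came from Trizol-extracted total RNA, per the labels' protocols. After leaving out 64 control probe sets, 34945 of 45037 probe sets had 1 gene symbol in the platform annotation, 932 had several and 9160 were unlisted. Probe sets with several genes or none were not used here. The floor was the 50th percentile. MAS5 subtracts mismatch signal, so dim probe sets scatter. Sharing of probes between transcripts, of the same gene or of related genes (IDs ending _x_at, _s_at or _a_at), can blur a reading. Precision is limited by the number of arrays. Each genotype had 1, so no test was possible and genes were counted by size.

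All 38 members are named whatever their values, with Prox1 and up to 3 genes with the largest absolute difference of each further list. Marker genes and Xist fall outside this rule and were chosen after their values were seen. The members and lists were chosen with earlier results of these data known. The 2-fold counting was tested on simulated data, with larger changes planted in bright genes. The 1.5-fold rule and changes in dim genes were not tested in this way. Tables were handled with pandas 2.3.3 and numpy 2.4.6 in Python 3.11.15, lowess came from statsmodels 0.14.6, trimmed means from scipy 1.17.1 and plots from matplotlib 3.10.9. Alternatives covered the floor, the probe set per gene, the probe set class and the scaling.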

Additional observations from a re-analysis of the deposited data

How the results depend on the processing

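The median over the members stayed below 0 in all 8 alternatives, from -0.12 to -0.07, and the median over further pathway genes from -0.04 to -0.02. Members past 2-fold numbered 0 of 38 as reported. With a lower floor (30th percentile) they numbered 1, and without floor or filter 1 (Derl3, log2 difference 1.19 in each). Without _x_at, _s_at and _a_at probe sets only 30 members were measured, and 1 passed 2-fold (Ssr4, -1.56). Of 38 members, 2 were past 1.5-fold as reported, 3 with the lower floor and 3 without floor or filter (Derl3 added). Without _x_at, _s_at and _a_at probe sets, 2 of 30 passed (Ern1 and Ssr4), beside 1517 of 9803 genes. A higher floor at the 60th percentile left 1 of 36 (Ern1), beside 1262 of 9851 genes. Of 38 members, 1 passed with quantile normalization (Trib3, 0.63), 1 with lowess correction (Trib3, 0.70) and 1 as the median over measured probe sets (Herpud1, -0.69). Ern1 reversed to -0.089 in that last setting. Over the whole array, the lower floor gave 1203 genes past 2-fold and 3240 past 1.5-fold of 14784 measured. Omitting floor and filter gave 3829 and 6363 of 18193, against 616 and 1719 of 11397 as reported. Both settings count more dim genes as measured and let dim signals differ further, and the part of each was not tested. Of 294 member values over the alternatives, 278 stayed on the same side of 1.5-fold and moved by less than the robust SD of genes of like signal. Much of this count was fixed beforehand, since floor settings move only members near the floor and the median setting shifts all members equally. The count also does not track sign. As the median over measured probe sets, Atf6 (0.13) and Sec63 (0.12) turned above 0. Hyou1 (-0.15), Syvn1 (-0.09), Derl1 (-0.13) and Ssr1 (-0.15) turned below 0 there. Signal near the floor limits Trib3, Chac1 and Derl3. No paired analysis was possible because each genotype has 1 array.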
